A study of Mus musculus with 20 samples.

Results

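The transcriptome of brain lacking Glb1 alone was compared with that of wild-type brain. Glb1 codes for the lysosomal beta-galactosidase. The comparison took the raw gene counts of the 5 libraries of the Glb1 knockout (Glb1KO) and the 5 libraries of the wild type (WT), 10 of the 20 libraries of a mouse study that also held a Neu3 knockout (Neu3KO) and a Glb1 and Neu3 double knockout (DKO), with 5 libraries each. Each library came from total RNA of 1 brain hemisphere and from polyadenylated transcripts. WT carried neither knockout, and Glb1KO carried no Neu3 knockout. The mice came from The Jackson Laboratory, per the labels. The sources used here do not give the allele of Glb1, the strain background or the age. Nor do the labels say that each library was a separate mouse, so a p-value here is about the spread from library to library, part of which may be technical.

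Lysosomal beta-galactosidase removes the terminal galactose of the ganglioside GM1, a sialic acid glycolipid abundant in neuronal membranes, and its loss in humans causes the storage disease GM1 gangliosidosis. Gangliosides are taken apart in sequence, by sialidases, beta-galactosidase, beta-hexosaminidase and their activator proteins, and beta-galactosidase works within a complex with the protective protein cathepsin A and the sialidase Neu1. Microglia clear stored or damaged material and take on a distinct gene programme when they do so, and oligodendrocytes make myelin, a membrane rich in galactolipids and cholesterol.

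Total counts per library ran from 16649633 to 19212266 in WT and from 15734414 to 20391893 in Glb1KO. Library 1 of WT stood apart: 2.45% of its counts were mitochondrial, against 3.74% to 4.66% in the other 9 libraries. Its log2 gene levels correlated with those of the other WT libraries at 0.979 to 0.982, against 0.987 to 0.989 among the others (Pearson). The identifiers of all WT libraries and of Glb1KO libraries 4 and 5 began with the letter E, and those of Glb1KO libraries 1 to 3 with L. What the letter stands for was not given. Values per library are CPM, read counts as a share of the library total after scaling with TMM factors. Fold changes are log2 of Glb1KO over WT with their standard error (SE), and a value after log2 in brackets is such a fold change. A gene was called when the adjusted p of edgeR's quasi-likelihood test was under 0.05.

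Glb1 stood at 20.7, 18.2, 21.8, 20.003 and 20.3 CPM in WT libraries 1 to 5 and at 2.80, 4.56, 3.27, 3.98 and 2.30 CPM in Glb1KO libraries 1 to 5. The 2 groups did not overlap, and the Glb1KO mean of 3.38 ± 0.903 CPM was 16.7% of the WT mean of 20.2 ± 1.32 CPM (SD, n = 5). An exact two-sided permutation test over all arrangements of the 10 values gave p = 0.00794, the smallest this design allows. The fitted difference was log2 fold change -2.58, SE 0.15, adjusted p 7.84e-15. Glb1 lies at chr9:114401076-114474898 (GRCm38), and its counts cover the whole gene, so reads from outside the altered part of the allele are included. The labels matched the targeted gene in all 10 libraries.

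In Glb1KO, genes of phagocytic microglia, complement and lysosomes were higher and genes of myelin were lower. Higher were 21 of 31 genes of disease-associated microglia, 7 of 18 complement genes and 19 of 43 lysosomal hydrolases, and lower were 34 of 39 genes of myelin and mature oligodendrocytes. Over the whole table, of 18336 genes tested, 726 (3.96%) were called, 321 higher (1.75%) and 405 lower (2.21%) in Glb1KO. Most of the differences were small: 469 of the 726 were under 1.5-fold. At least 2-fold higher were 60 genes (0.327% of those tested), and at least 2-fold lower were 39 (0.213%). In 1020 genes, 5.56% of those tested, the 5 libraries of a group all lay above or all below the 5 of the other, with Glb1KO higher in 2.6% and lower in 2.96%. Of the genes named here, those not called when the letter was a term in the fit were Abca2, Aif1, Anapc13, Ankub1, Asah1, Atp6v0d1, Atp6v0d2, Atp6v1b2, Atp6v1d, C3, Ccl4, Ccl6, Clcn7, Cox7b, Cxcl16, Eno2, Enpp6, Flcn, Fnip2, Glra1, Gm2a, Gm37111, Gm42756, Gpr34, Gpr62, Hepacam, Hlf, Hmox1, Hoxc4, Ifi204, Ifit3, Ifit3b, Insig1, Lgals9, Lpl, Ly86, Ms4a7, Npc1, Npc2, Nxph4, Oasl2, Olig1, Ostm1, Phgdh, Pls1, Rragc, Slc2a5, Slc6a5, Snap25, Spink8, St6galnac3 and Tgfb1 (adjusted p 0.0534 to 0.813). Of the rest, Bhlhe40, Cyp2j12, H2-D1 and Npas4 were not called among libraries with the letter E alone (adjusted p 0.0515 to 0.141), and Mrc1, Stab1 and Ugt8a were not with the L libraries of Glb1KO alone (adjusted p 0.0549 to 0.133). The letter L occurs in Glb1KO alone. With the letter as a term, Glb1KO minus WT therefore rests on the 2 Glb1KO libraries with the letter E. In bulk RNA, fewer cells of a type and less RNA per cell cannot be told apart.

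Among genes annotated as protein-coding that averaged at least 1 CPM, did not overlap between the groups and lay over 20 Mb from Glb1, the highest fold changes were those of Cst7, Itgax, Gpnmb, Ly9 and Lyz2. Cst7, the gene of the cysteine protease inhibitor cystatin F, stood at 0, 0.381, 0.179, 0.243 and 0.170 CPM in WT libraries 1 to 5 and at 3.97, 5.10, 3.46, 2.89 and 3.89 CPM in Glb1KO libraries 1 to 5. Itgax, the integrin chain also known as CD11c, stood at 0.211, 0.218, 0, 0.608 and 0.113 CPM in WT libraries 1 to 5 and at 2.39, 4.26, 2.58, 4.55 and 2.62 CPM in Glb1KO libraries 1 to 5. Gpnmb, a lysosomal and cell surface glycoprotein raised in storage disorders, stood at 3.42, 2.72, 4.11, 3.40 and 4.25 CPM in WT libraries 1 to 5 and at 39.5, 42.3, 45.1, 44.1 and 25.5 CPM in Glb1KO libraries 1 to 5. All 3 were low in WT, Cst7 with no read in WT library 1 and Itgax with none in WT library 3, and no Glb1KO library overlapped a WT library. The differences were log2 fold change 4.27, SE 0.39, adjusted p 2.80e-08 for Cst7, log2 fold change 3.81, SE 0.41, adjusted p 4.23e-07 for Itgax and log2 fold change 3.46, SE 0.16, adjusted p 6.23e-12 for Gpnmb. Gpnmb in Glb1KO library 5 was 25.5 CPM, below the 39.5 to 45.1 CPM of the other 4.

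Ly9, a SLAM family receptor of immune cells, stood at 0, 0.272, 0, 0.608 and 0.227 CPM in WT libraries 1 to 5 and at 2.69, 2.04, 2.29, 2.76 and 1.66 CPM in Glb1KO libraries 1 to 5. Lyz2, the lysozyme of macrophages, stood at 2.42, 4.79, 4.41, 4.32 and 5.89 CPM in WT libraries 1 to 5 and at 35.6, 30.1, 33.2, 30.8 and 27.7 CPM in Glb1KO libraries 1 to 5. Ly9 and Lyz2 were higher in each Glb1KO library than in any WT library (log2 fold change 3.36, SE 0.43, adjusted p 3.68e-06 for Ly9 and log2 fold change 2.85, SE 0.19, adjusted p 7.70e-09 for Lyz2). The next log2 fold changes were those of the galectin Lgals3 (2.01), Cd68 (1.82), the chemokine Ccl6 (1.78), the signalling adaptor Tyrobp (1.73), the pore-forming macrophage protein Mpeg1 (1.6), the checkpoint receptor Lag3 (1.58), the inhibitory Fc receptor Fcgr2b (1.52), Trem2 (1.5), C4b (1.41) and Serpina3n (1.40).

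**Figure D1:**
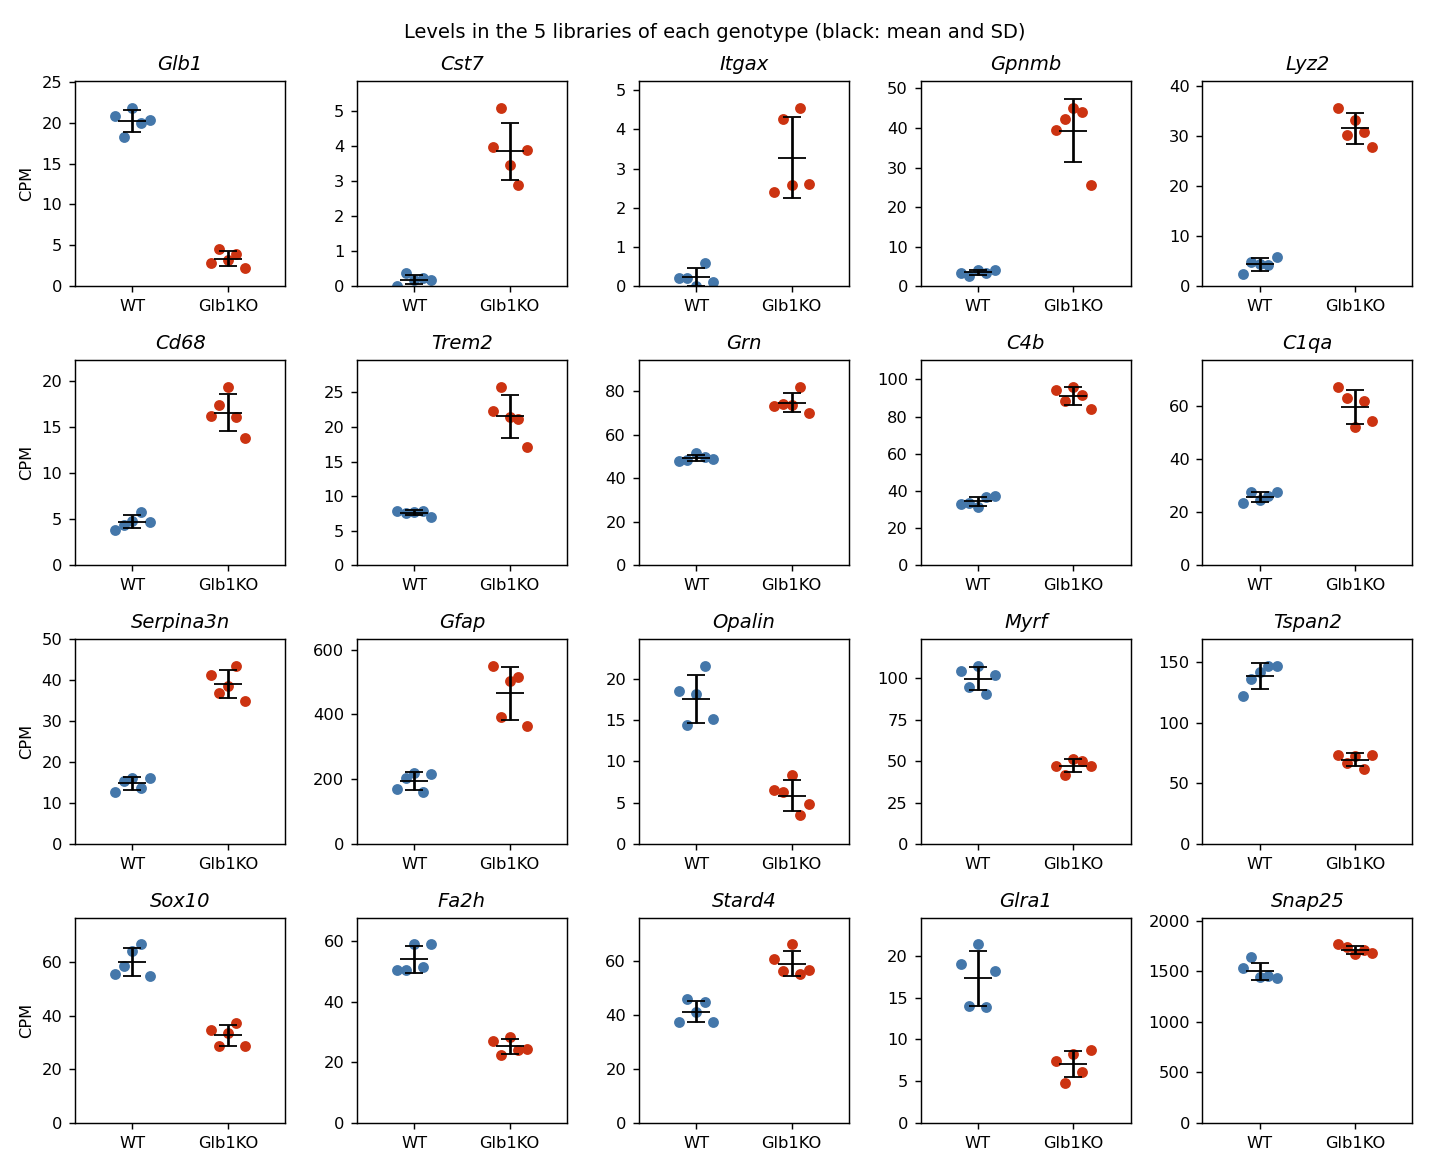
CPM (linear axis from 0, vertical) of 20 genes in the 5 WT (blue) and 5 Glb1KO (red) libraries, each point a library and the black bars the mean and SD. The microglial, complement and astrocyte genes lie higher in all 5 Glb1KO libraries, and Glb1, Opalin, Myrf, Tspan2, Sox10, Fa2h and Glra1 lie lower in all 5.

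Some genes of ganglioside breakdown were higher in Glb1KO, and most were not called. Of 20 tested genes of ganglioside and sphingolipid breakdown, 7 were higher and 1, Glb1 itself, was lower, against 1.75% and 2.21% of all genes. The median log2 fold change of the list was 0.16, and that of all genes tested 0.00205. Hexa, the alpha subunit of hexosaminidase, stood at 39.5, 40.6, 42.6, 41.4 and 46.7 CPM in WT libraries 1 to 5 and at 55.1, 57.7, 53.3, 64.2 and 56.5 CPM in Glb1KO libraries 1 to 5, with no overlap. Hexa averaged 42.2 ± 2.78 CPM in WT and 57.4 ± 4.17 CPM in Glb1KO (SD, n = 5) and rose with log2 fold change 0.44, SE 0.08, adjusted p 0.000383. Gm2a, the activator that presents GM2 to hexosaminidase, rose by 0.27 on the log2 scale (SE 0.06, adjusted p 0.00145).

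Both partners of beta-galactosidase in its complex were higher. Ctsa, the protective protein, averaged 82.0 ± 4.51 CPM in WT and 110.1 ± 4.90 CPM in Glb1KO (SD, n = 5) and Neu1, the lysosomal sialidase, 46.2 ± 3.76 CPM in WT and 62.4 ± 4.35 CPM in Glb1KO (SD, n = 5). Both rose, with log2 fold change 0.43, SE 0.05, adjusted p 4.04e-07 for Ctsa and log2 fold change 0.43, SE 0.06, adjusted p 9.77e-06 for Neu1. The acid ceramidase Asah1 (log2 0.28, adjusted p 0.00203) rose as well.

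Other sialidases and galactosidases were not called: the plasma membrane sialidase Neu3 (log2 0.08, adjusted p 0.898), its relatives Neu2 (log2 -0.26, adjusted p 0.605) and Neu4 (log2 -0.09, adjusted p 0.841), and the beta-galactosidase relatives Glb1l (log2 0.18, adjusted p 0.543) and Glb1l2 (log2 0.30, adjusted p 0.725). Others not called, by log2 fold change, were the saposin precursor Psap (0.09), the sphingomyelinase Smpd1 (0.10), the non-lysosomal glucosylceramidase Gba2 (0.03), the galactosylceramidase Galc (0.14), the alpha-galactosidase Gla (0.28) and the arylsulfatase Arsa (0.06). When the letter was a term in the fit, 4 members were called higher and the median was 0.13.

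Of 16 genes listed under ganglioside synthesis none was higher and 3 were lower, against 1.75% and 2.21% of all genes, with a median of -0.04. Those 3 were Ugt8a (log2 -1.04, adjusted p 0.0106), Gal3st1 (log2 -0.70, adjusted p 0.000515) and St6galnac3 (log2 -0.40, adjusted p 0.0115). Ugt8a and Gal3st1 make galactosylceramide and sulfatide, the galactolipids of myelin and not gangliosides, and are counted among the enzymes of myelin lipids too. St6galnac3 adds a further sialic acid to sialylated acceptors. It was not called with the letter as a term (adjusted p 0.242). The genes of the steps from glucosylceramide to complex gangliosides were not called, with log2 fold changes of -0.01 for Ugcg, -0.04 for B4galt5, -0.01 for B4galt6, 0.08 for the GM3 synthase St3gal5, 0.01 for the GD3 synthase St8sia1, -0.11 for B4galnt1, 0.05 for B3galt4, -0.21 for St3gal1 and -0.01 for St3gal2. The other sialyltransferases listed were not called either, by log2 fold change (St8sia3 -0.04, St8sia5 -0.21, St6galnac5 -0.06 and St6galnac6 0.16).

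**Figure D2:**
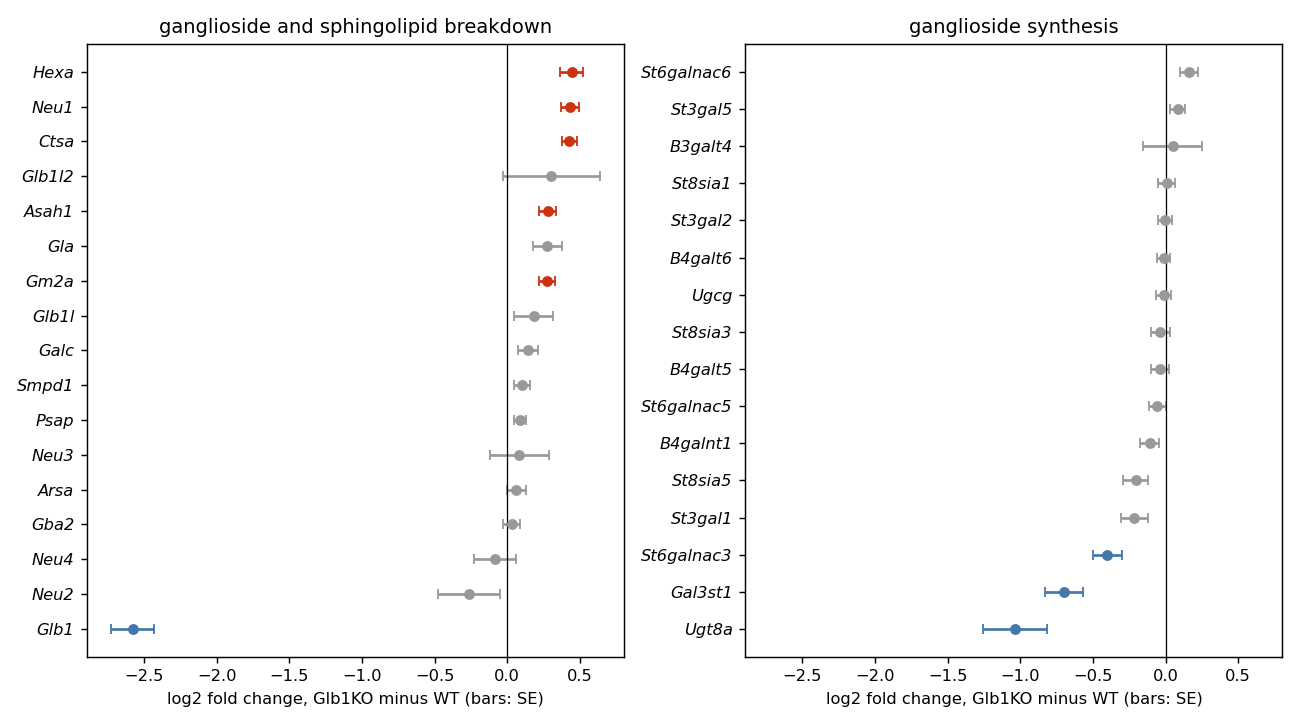
Log2 fold change of Glb1KO over WT (horizontal axis, bars the SE) of the tested ganglioside and sphingolipid breakdown genes shown (left, 17 genes) and of ganglioside synthesis (right, 16 genes), red called higher, blue called lower and grey not called. On the left Glb1 lies at -2.58 and 5 of the genes drawn are called higher. On the right the 3 called genes, among them Ugt8a and Gal3st1 of myelin galactolipids, lie below 0.

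The increase extended over lysosomal enzymes and the organelle's membrane. Of 43 lysosomal hydrolases tested, 19 were higher and none lower (median 0.23), and 38 had a log2 fold change above 0. Ctss, the microglial cathepsin S, stood at 27.8, 41.2, 32.1, 33.9 and 35.1 CPM in WT libraries 1 to 5 and at 90.9, 80.9, 77.6, 79.3 and 63.2 CPM in Glb1KO libraries 1 to 5. Grn, the lysosomal precursor protein progranulin, stood at 47.7, 48.3, 51.4, 49.6 and 49.0 CPM in WT libraries 1 to 5 and at 73.3, 74.1, 73.6, 82.0 and 70.0 CPM in Glb1KO libraries 1 to 5. In neither gene did the groups overlap (log2 fold change 1.21, SE 0.09, adjusted p 8.47e-10 for Ctss and log2 fold change 0.60, SE 0.06, adjusted p 1.68e-09 for Grn). Among the other cathepsins, Ctsz rose by 0.81, Ctsd by 0.86 and Ctsb by 0.32 on the log2 scale. Ctsb had the most counts of the hydrolases, at 514 ± 26.3 CPM in WT and 642 ± 27.6 CPM in Glb1KO (SD, n = 5). Ids, the iduronate sulfatase, came next in counts and had a log2 fold change of -0.01 (adjusted p 0.960).

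Of 39 genes of the lysosomal membrane and the vacuolar proton pump, 17 were higher and 1 lower (median 0.15). The pump acidifies lysosomes, and on the log2 scale its subunit Atp6v1e1 rose by 0.35 (adjusted p 3.45e-05), Atp6v1d by 0.29 (adjusted p 0.000464) and Atp6v1b2 by 0.17 (adjusted p 0.0249). Atp6v1a, a subunit of its catalytic head, was not called (log2 0.12, adjusted p 0.169). Atp6v0d2, a subunit of osteoclasts and macrophages that was singled out after its values were seen, had no read in WT and 31 reads over the 5 Glb1KO libraries, at least 10.7-fold higher if 3 reads are taken for the whole WT group. Its level in Glb1KO ran from 0 to 0.634 CPM, so the groups overlapped at 0. It was called with the L libraries of Glb1KO (adjusted p 1.52e-05) and not among libraries with the letter E (adjusted p 0.701). Laptm5, a lysosomal membrane protein of immune cells, rose by 0.65 on the log2 scale (adjusted p 4.02e-07) and the tetraspanin Cd63 by 0.53 (adjusted p 1.74e-05). The cholesterol exporter Npc1 was the member that fell, by 0.27 on the log2 scale (adjusted p 0.00131), while its luminal partner Npc2 rose by 0.36 (log2, adjusted p 0.00244).

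Calls on both lists were fewer once the identifier letter was a term in the fit, where 12 hydrolases (median 0.23) and 5 membrane and pump genes (median 0.17) were called higher. Atp6v1b2 was not called without WT library 1 or 5 or Glb1KO library 1 or 3 (adjusted p 0.0552 to 0.0788). Microglial markers were higher in the same Glb1KO libraries, as given below, and their part in the lysosomal difference was not tested.

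Many lysosomal genes carry near their start site the CLEAR element, a binding motif of the MiT/TFE transcription factors with the core TCACGTGA. This core, a palindrome and thus the same on both strands, was searched in RefSeq promoter windows of 300 bases (GRCm38.p6, from 250 bases before to 50 after the start), of which 65 of the 82 tested lysosomal genes had at least 1. It was present in 7 of these 65 genes (10.8%), and in 1.91% of all tested genes with a window. It was in 3 of 27 lysosomal genes called higher (11.1%) and in 4 of 38 not called (10.5%). The shorter E-box CACGTG, which the core contains, was found in 24.6% of lysosomal genes and 11.02% of tested genes with a window, and in 7.15% of all promoter windows. Among lysosomal genes the E-box was in 4 of 27 called higher (14.8%) and in 12 of 38 not called (31.6%). The longer core was in 0.974% of all promoter windows. A match is a description of the sequence and no site of binding.

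In the lists of lysosomal hydrolases, membrane and pump genes, the 3 called higher with the core in their window were Ctsd, Ctsa and the pump subunit Atp6v0d1 (log2 0.23, adjusted p 0.00577), the last named after its value was seen. Clcn7, a lysosomal chloride exchanger outside these lists, was called higher and held the core too. The promoters of the first 3 are shown because these members moved together and show where the core lies. The lines give 170 bases before to 30 after the RefSeq start (build GRCm38.p6), 5′ to 3′ on the gene's strand, with the core in capitals. It begins 99 bases before the start in Ctsd, 13 before it in Ctsa, with another copy 4 bases after the first base of the transcript, and 4 before it in Atp6v0d1.
Ctsd, chr7:142387798-142387997, minus strand: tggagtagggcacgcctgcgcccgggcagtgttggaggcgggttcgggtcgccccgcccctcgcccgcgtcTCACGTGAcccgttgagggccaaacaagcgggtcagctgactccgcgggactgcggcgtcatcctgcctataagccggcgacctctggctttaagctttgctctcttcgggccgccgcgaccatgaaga
Ctsa, chr2:164833603-164833802, plus strand: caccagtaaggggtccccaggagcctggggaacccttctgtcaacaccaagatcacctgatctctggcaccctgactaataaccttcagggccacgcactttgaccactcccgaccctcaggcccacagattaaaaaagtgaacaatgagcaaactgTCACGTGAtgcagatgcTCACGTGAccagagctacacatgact
Atp6v0d1, chr8:105566035-105566234, minus strand: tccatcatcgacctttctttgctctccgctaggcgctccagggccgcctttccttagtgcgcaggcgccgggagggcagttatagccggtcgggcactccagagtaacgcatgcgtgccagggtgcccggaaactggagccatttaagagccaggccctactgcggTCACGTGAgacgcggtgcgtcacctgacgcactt

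The list of disease-associated microglia, the state seen around amyloid and degenerating tissue, held more genes called higher than any other list. Of 31 tested, 21 were higher and none lower, against 1.75% and 2.21% of all genes, and the median log2 fold change was 0.86. Cd68, a lysosomal protein of phagocytes, stood at 3.84, 4.41, 4.82, 5.84 and 4.70 CPM in WT libraries 1 to 5 and at 16.2, 17.4, 19.4, 16.1 and 13.8 CPM in Glb1KO libraries 1 to 5. Trem2, the lipid receptor that drives this state, stood at 7.79, 7.62, 7.68, 7.90 and 7.02 CPM in WT libraries 1 to 5 and at 22.3, 25.8, 21.4, 21.1 and 17.2 CPM in Glb1KO libraries 1 to 5. Each Glb1KO library exceeded every WT library in both genes (log2 fold change 1.82, SE 0.11, adjusted p 3.45e-14 for Cd68 and log2 fold change 1.5, SE 0.11, adjusted p 1.69e-12 for Trem2). Clec7a, a pattern receptor that the annotation lists as a polymorphic pseudogene and not as protein-coding, had 13 reads over the 5 WT libraries and averaged 3.42 ± 0.274 CPM in Glb1KO (log2 fold change 4.47, SE 0.32, adjusted p 2.88e-12). The Trem2 adaptor Tyrobp rose with log2 fold change 1.73, SE 0.17, adjusted p 1.04e-07.

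Some of the best known genes of that state were not called. Apoe, a lipid carrier, averaged 1178 ± 136 CPM in WT and 1412 ± 96.8 CPM in Glb1KO (SD, n = 5) and was not called (log2 fold change 0.26, SE 0.08, adjusted p 0.0782). Fth1, the ferritin heavy chain, was not called either (log2 -0.17, adjusted p 0.171). Spp1, the gene of osteopontin, and the growth factors Igf1 and Csf1, named after their values were seen, were not called either, with log2 fold changes of -0.04, 0.06 and -0.05. Bulk levels of Apoe and Fth1 also include astrocytes and oligodendrocytes, and the part of each cell type was not tested. The lipase Lpl (log2 0.36, adjusted p 0.0319) was called, but not without WT library 1, 3 or 5 or Glb1KO library 1, 2 or 3 (adjusted p 0.0505 to 0.121). The chemokine Ccl4 (log2 2.09, adjusted p 0.0200) rested on 8 WT reads and was not called without WT library 3 or 4 or Glb1KO library 1 (adjusted p 0.0503 to 0.0665).

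Homeostatic microglial genes are those of the resting state. Of 22 tested, 7 were higher and 1 was lower, the fructose transporter Slc2a5 (log2 -0.73, adjusted p 0.0258, named after its value was seen), with a median of 0.20. Those that rose included C1qa, given below, the sialic acid receptor Cd33 (log2 0.79, adjusted p 2.87e-06), the Fc receptor-like Fcrls (log2 0.86, adjusted p 0.00329), the purinergic family receptor Gpr34 (log2 0.57, adjusted p 0.00848) and Aif1, the microglial marker IBA1 (log2 0.83, adjusted p 0.0118). The defining markers P2ry12 (log2 0.07, adjusted p 0.836), Tmem119 (log2 0.08, adjusted p 0.817) and Cx3cr1 (log2 0.14, adjusted p 0.420), chosen after their values were seen, were not called, nor was Csf1r, the growth factor receptor microglia depend on (log2 0.13, adjusted p 0.305). The summed level of the 22 genes was 762 to 838 CPM in WT and 912 to 977 CPM in Glb1KO. Slc2a5 was not called without WT library 2, 4 or 5 or Glb1KO library 1, 2 or 3 (adjusted p 0.0508 to 0.0877), and Aif1 was not called without WT library 4 (adjusted p 0.0501).

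Complement, the opsonins that mark material for phagocytosis, was higher in 7 of 18 genes and lower in none (median 0.77). C4b, made in brain mainly by glia, stood at 32.9, 33.6, 31.3, 36.5 and 37.3 CPM in WT libraries 1 to 5 and at 94.4, 88.6, 96.1, 91.5 and 83.9 CPM in Glb1KO libraries 1 to 5. C1qa, a chain of the initiating C1q, stood at 23.3, 27.6, 24.5, 26.0 and 27.6 CPM in WT libraries 1 to 5 and at 67.3, 63.1, 52.0, 61.7 and 54.3 CPM in Glb1KO libraries 1 to 5. The groups were far apart in both (log2 fold change 1.41, SE 0.06, adjusted p 1.85e-17 for C4b and log2 fold change 1.21, SE 0.08, adjusted p 8.71e-14 for C1qa). C4b and Mpeg1, a pore-forming protein of macrophages, shared the smallest adjusted p of all 18336 genes. C1qb (log2 1.21, adjusted p 5.20e-08) and C1qc (log2 1.22, adjusted p 1.68e-09) rose too. On the log2 scale the receptor C3ar1 rose by 1.38 (adjusted p 6.40e-06), Itgb2, the beta chain of complement receptors, by 0.98 (adjusted p 6.91e-07), and C3 itself by 0.98 (adjusted p 0.00875), the last not called without Glb1KO library 1 (adjusted p 0.0566). C4b has a near-identical copy, and how the authors' counting split reads between them was not given.

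Fc, phagocytic and Toll-like receptors were higher in 14 of 31 tested genes and lower in none (median 0.86). Fcgr2b stood at 2.37, 1.96, 2.26, 2.37 and 3.57 CPM in WT libraries 1 to 5 and at 7.53, 7.26, 7.27, 7.37 and 6.64 CPM in Glb1KO libraries 1 to 5. Fcgr2b separated the groups, with WT library 5 above the other WT libraries (log2 fold change 1.52, SE 0.14, adjusted p 1.68e-09). On the log2 scale its activating relative Fcgr3 rose by 0.92 (adjusted p 1.43e-06), the shared signalling chain Fcer1g by 0.89 (adjusted p 3.41e-06), and Ly86, a co-receptor of the Toll family, by 0.94 (adjusted p 0.000176). Lilrb4a, an inhibitory leukocyte receptor whose reads may be shared with its close copy Lilr4b, rose by 3.35 (log2, adjusted p 1.71e-07). The engulfment kinases Mertk (log2 0.22, adjusted p 0.266) and Axl (log2 0.13, adjusted p 0.319) were not called. A fit with the letter had 9 members higher (median 0.83).

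Markers of border-associated macrophages, the phagocytes of meninges and vessels, were higher in 3 of 12 genes, Mrc1 (log2 0.88, adjusted p 0.00320), Ms4a7 (log2 2.09, adjusted p 0.00601) and Stab1 (log2 0.50, adjusted p 0.0194). Stab1 was not called without WT library 2 or 4 or Glb1KO library 1 or 4 (adjusted p 0.0527 to 0.0613). The summed level of the 15 listed genes, those not tested included, was 70.0 to 78.3 CPM in WT and 83.7 to 94.3 CPM in Glb1KO. Their part in the microglial differences was not tested. None of the 11 tested markers of blood cells and lymphocytes was called (2 at an unadjusted p under 0.05 by edgeR and 1 called by DESeq2). The summed level of the 27 listed was 113 to 180 CPM in WT and 149 to 215 CPM in Glb1KO.

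**Figure D3:**
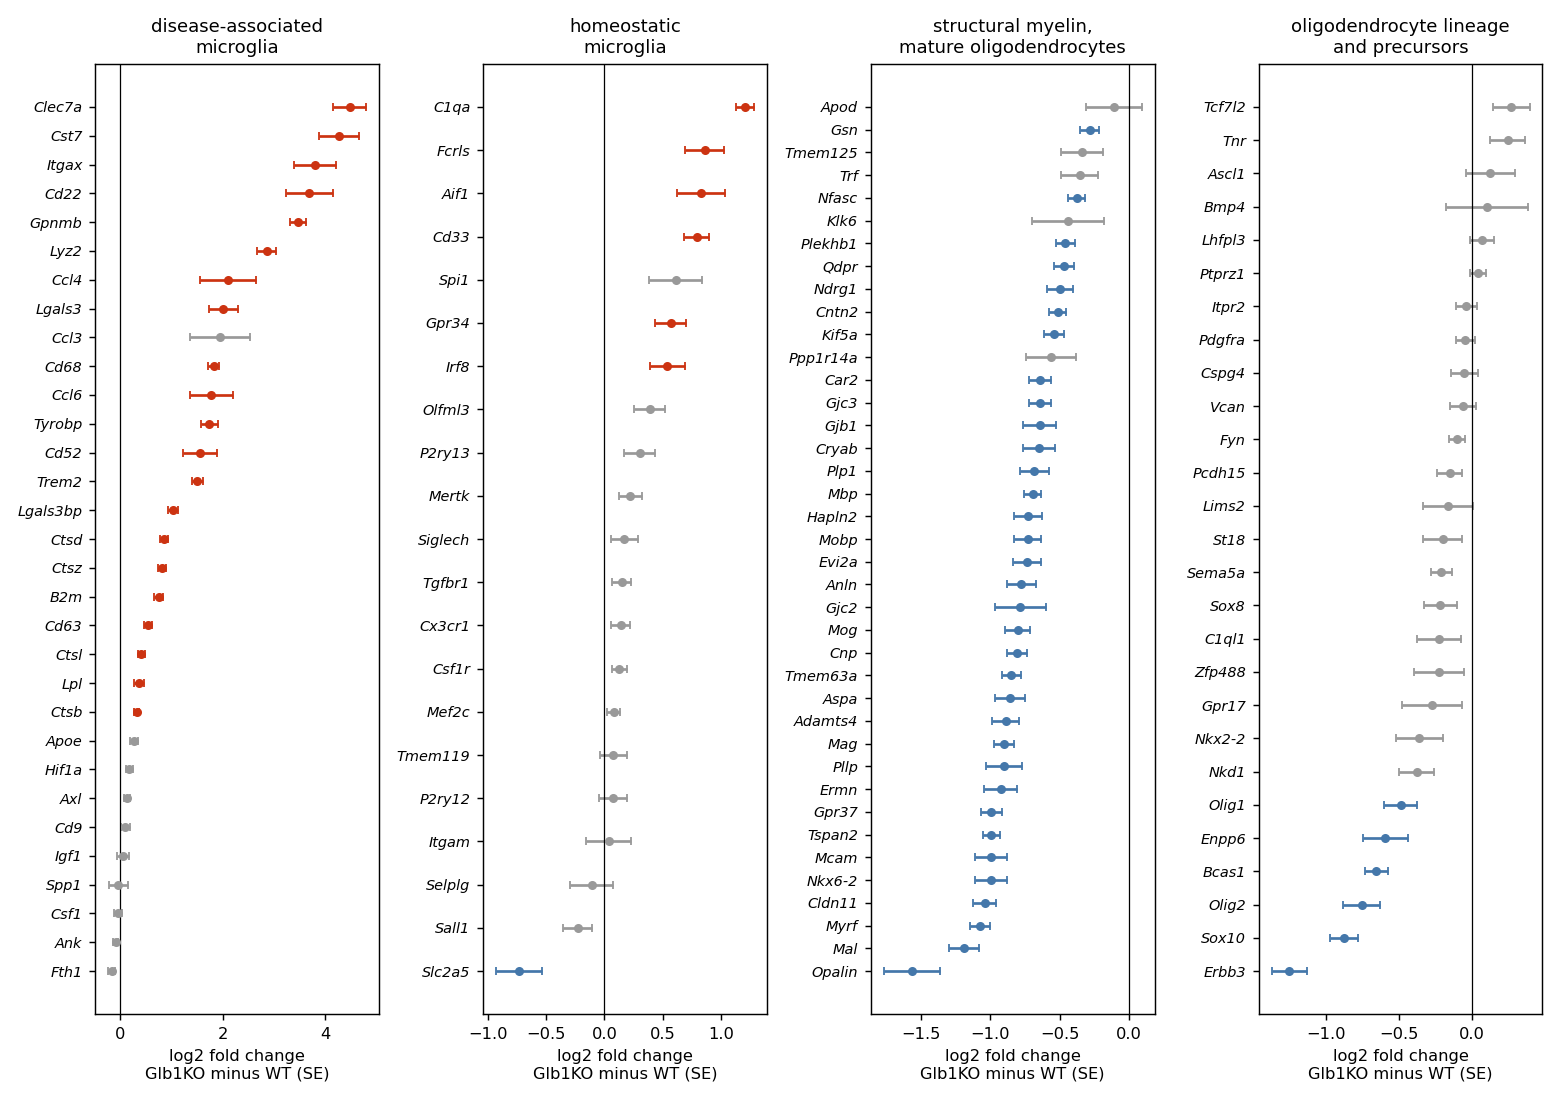
Log2 fold change of Glb1KO over WT (horizontal axes, each panel with its own range, bars the SE) for tested genes of disease-associated microglia (31 drawn), homeostatic microglia (21 drawn), structural myelin and mature oligodendrocytes (39) and oligodendrocyte lineage and precursors (27), red called higher, blue called lower and grey not called. The first panel lies almost wholly above 0 and the third wholly below it, while P2ry12, Tmem119, Pdgfra and Cspg4 lie near 0.

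Class I antigen presentation, by which cells show peptides to T cells, was higher in a few genes. B2m, the light chain of class I molecules, stood at 42.0, 56.6, 53.5, 56.2 and 58.8 CPM in WT libraries 1 to 5 and at 98.2, 92.8, 89.2, 86.0 and 81.4 CPM in Glb1KO libraries 1 to 5. All Glb1KO libraries lay above WT, in which library 1 was the lowest (log2 fold change 0.75, SE 0.09, adjusted p 6.10e-07). Of 19 genes of antigen presentation 3 were higher, B2m and the class I heavy chains H2-K1 (log2 0.48, adjusted p 2.03e-05) and H2-D1 (log2 0.48, adjusted p 0.000160), and none was lower (median 0.15). Reads of the H2 genes could be split among close copies.

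Of 33 genes of the type I interferon response 5 were higher and none lower (median 0.36). Ifit3, an antiviral protein, stood at 5.85, 6.37, 5.72, 8.57 and 7.65 CPM in WT libraries 1 to 5 and at 11.04, 11.3, 12.6, 7.95 and 13.9 CPM in Glb1KO libraries 1 to 5. Glb1KO library 4 lay within the WT range, so the groups overlapped, and the difference was log2 fold change 0.74, SE 0.16, adjusted p 0.00293. The other 4 were the nucleic acid sensor Ifi204 (log2 2.49, adjusted p 0.00367), the antiviral Oasl2 (log2 0.68, adjusted p 0.0255), the galectin Lgals9 (log2 0.52, adjusted p 0.0389) and the Ifit3 relative Ifit3b (log2 0.66, adjusted p 0.0400). All 5 calls were lost with the identifier letter as a term in the fit and among libraries with the letter E alone. Oasl2 was not called without WT library 1, 2 or 4 or Glb1KO library 1 or 2 (adjusted p 0.0534 to 0.0978), Lgals9 without WT library 1, 3, 4 or 5 or Glb1KO library 1 or 2 (adjusted p 0.0638 to 0.196), and Ifit3b without WT library 1, 2 or 3 or Glb1KO library 1, 2, 3 or 5 (adjusted p 0.0575 to 0.122). With the letter as a term none of the 33 was called (median 0.27), and the count was 3 without WT library 1, 2 or 4 and 2 without Glb1KO library 1 or 2.

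Of 15 cytokines and chemokines 4 were higher and 1 lower (median 0.55). Il33, an alarmin that mature oligodendrocytes and astrocytes make, stood at 57.1, 71.2, 67.5, 71.7 and 66.6 CPM in WT libraries 1 to 5 and at 48.6, 42.0, 45.2, 38.8 and 42.6 CPM in Glb1KO libraries 1 to 5. Every Glb1KO library was below the WT range (log2 fold change -0.62, SE 0.10, adjusted p 0.000149). Those that rose were the growth factor Tgfb1 (log2 0.55, adjusted p 0.00556) and the chemokines Ccl6, Cxcl16 (log2 0.96, adjusted p 0.0128) and Ccl4, the last 1 at few reads as given above. None of these 4 was called with the letter in the fit, and Il33 was.

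Reactive astrocyte genes rose in 5 of 28 tested and fell in none (median 0.27). Serpina3n, a secreted protease inhibitor, stood at 12.7, 15.5, 16.2, 13.7 and 16.1 CPM in WT libraries 1 to 5 and at 41.2, 36.8, 38.5, 43.6 and 35.0 CPM in Glb1KO libraries 1 to 5. Gfap, the intermediate filament of astrocytes, stood at 169, 204, 220.2, 159.5 and 215 CPM in WT libraries 1 to 5 and at 551, 393, 504, 516 and 363 CPM in Glb1KO libraries 1 to 5. Both were higher in each Glb1KO library than in any WT library (log2 fold change 1.40, SE 0.10, adjusted p 8.53e-10 for Serpina3n and log2 fold change 1.27, SE 0.13, adjusted p 3.32e-06 for Gfap). Gfap varied within Glb1KO, with libraries 2 and 5 below the other 3. The other 3 called were the cytokine receptor Osmr (log2 1.08, adjusted p 3.42e-06), the asparaginase Aspg (log2 0.75, adjusted p 0.000634) and C3, whose call rested on Glb1KO library 1 as given above. Of 23 homeostatic astrocyte genes 1 was lower, the adhesion protein Hepacam (log2 -0.21, adjusted p 0.0256), and it was not called without WT library 2, 3 or 5 or Glb1KO library 1, 3 or 4 (adjusted p 0.0501 to 0.101). The glutamate transporter Slc1a2 (log2 0.07, adjusted p 0.469) and the matrix protein Sparcl1 (log2 0.12, adjusted p 0.162) were not called.

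Myelin genes were lower almost throughout. Of 39 tested genes of structural myelin and mature oligodendrocytes 34 were lower and none higher, against 2.21% and 1.75% of all genes, and all 39 had a log2 fold change below 0 (median -0.73). Their summed level was 11223 to 12165 CPM in WT and 7208 to 7944 CPM in Glb1KO. Tspan2, a tetraspanin of myelin, stood at 122, 136, 142, 147 and 147 CPM in WT libraries 1 to 5 and at 73.4, 67.2, 72.2, 61.8 and 73.5 CPM in Glb1KO libraries 1 to 5. Myrf, the transcription factor that switches on myelin genes, stood at 104, 94.8, 108, 90.5 and 102 CPM in WT libraries 1 to 5 and at 46.8, 41.7, 51.1, 50.2 and 47.0 CPM in Glb1KO libraries 1 to 5. In both the highest Glb1KO library was far below the lowest WT library (log2 fold change -0.99, SE 0.06, adjusted p 5.62e-14 for Tspan2 and log2 fold change -1.07, SE 0.07, adjusted p 3.67e-13 for Myrf).

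Opalin, a membrane protein of mature oligodendrocytes and the lowest of the fold changes ranked outside the window around Glb1, stood at 18.5, 14.4, 18.2, 21.6 and 15.1 CPM in WT libraries 1 to 5 and at 6.48, 6.30, 8.29, 3.46 and 4.79 CPM in Glb1KO libraries 1 to 5. Its groups did not overlap (log2 fold change -1.57, SE 0.20, adjusted p 1.99e-05). The main myelin protein Mbp averaged 2709 ± 162 CPM in WT and 1673 ± 111 CPM in Glb1KO (SD, n = 5) and fell (log2 -0.70, adjusted p 3.06e-10). Mag, the adhesion protein of the inner myelin layer, fell by 0.90 on the log2 scale, the tight junction protein Cldn11 by 1.04, the raft protein Mal by 1.19, the receptor Gpr37 by 0.99, the ion channel Tmem63a by 0.85 and the transcription factor Nkx6-2 by 1.0. Kif5a, the member with the most counts, is a neuronal kinesin and no myelin protein. It averaged 2824 ± 140.1 CPM in WT and 1939 ± 55.2 CPM in Glb1KO (SD, n = 5) and fell too (log2 -0.54, adjusted p 1.51e-05). Without WT library 1 the count lower was 34, among Glb1KO libraries with the letter E 34 and among those with L 32.

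Of 27 tested genes of oligodendrocyte lineage regulators and precursors 6 were lower and none higher (median -0.20). Erbb3, a neuregulin receptor, stood at 24.96, 22.4, 24.2, 21.9 and 21.9 CPM in WT libraries 1 to 5 and at 11.2, 7.86, 11.9, 10.8 and 6.57 CPM in Glb1KO libraries 1 to 5. Sox10, the transcription factor of the whole lineage, stood at 55.4, 58.4, 64.2, 66.6 and 54.9 CPM in WT libraries 1 to 5 and at 34.8, 28.6, 33.6, 37.3 and 28.8 CPM in Glb1KO libraries 1 to 5. Both groups of libraries were separate (log2 fold change -1.25, SE 0.12, adjusted p 2.40e-09 for Erbb3 and log2 fold change -0.88, SE 0.10, adjusted p 3.43e-07 for Sox10). The other 4 were Bcas1, a marker of newly formed oligodendrocytes (log2 -0.66, adjusted p 1.22e-06), the lineage factors Olig2 (log2 -0.76, adjusted p 0.000345) and Olig1 (log2 -0.49, adjusted p 0.0127), and Enpp6, a marker of early myelinating cells (log2 -0.59, adjusted p 0.0174). The precursor markers Pdgfra (-0.05), Cspg4 (-0.05) and Vcan (-0.07), chosen after their values were seen, and Ptprz1 (0.04) were not called, with these log2 fold changes. Enpp6 was not called without WT library 2 or 5 or Glb1KO library 2 (adjusted p 0.0519 to 0.0796).

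Enzymes of myelin lipids fell in 7 of 22 tested genes and rose in none (median -0.13). Fa2h, which hydroxylates the fatty acids of myelin galactolipids, stood at 50.5, 50.4, 59.0, 51.6 and 59.0 CPM in WT libraries 1 to 5 and at 27.1, 22.4, 28.5, 24.1 and 24.6 CPM in Glb1KO libraries 1 to 5. Fa2h in Glb1KO lay below the whole WT range (log2 fold change -1.09, SE 0.10, adjusted p 2.28e-08). Cers2, which makes ceramides with very long chains, fell by 0.51 on the log2 scale (adjusted p 1.97e-07), and Aspa, which frees acetate for myelin lipids, by 0.86 (adjusted p 8.88e-07). The elongase Elovl7 fell (log2 -0.49, adjusted p 0.00175), and Ugt8a and Gal3st1, given above, belong here too. The lipid synthesis genes Scd2 (log2 -0.15, adjusted p 0.0606) and Fasn (log2 -0.07, adjusted p 0.509), which other cell types also use, were not called. The transporters Abca8a (log2 -1.12, adjusted p 2.90e-09) and Abca2 (log2 -0.29, adjusted p 0.000675) fell among 25 genes of cholesterol export and lipid handling, of which 4 were higher and 3 lower (median 0.06). A fit with the letter called 0 of these 25 higher and 1 lower.

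Of 26 tested genes of cholesterol biosynthesis, which supplies a main lipid of myelin, 9 were higher and none was lower (median 0.26), and 25 had a log2 fold change above 0. Stard4, a carrier that moves sterols between membranes, stood at 37.4, 46.1, 41.1, 44.7 and 37.3 CPM in WT libraries 1 to 5 and at 60.9, 56.4, 66.2, 55.3 and 56.8 CPM in Glb1KO libraries 1 to 5. The 5 Glb1KO libraries lay above all WT libraries (log2 fold change 0.52, SE 0.08, adjusted p 3.42e-05). Among the enzymes, the thiolase Acat2 (log2 0.51, adjusted p 0.000219), the sterol dehydrogenase Nsdhl (log2 0.59, adjusted p 0.000254), the squalene synthase Fdft1 (log2 0.46, adjusted p 0.000980) and the sterol reductase Hsd17b7 (log2 0.49, adjusted p 0.00125) rose, as did the sterol sensor Insig1 (log2 0.53, adjusted p 0.00210). The synthase Hmgcs1 (log2 0.35, adjusted p 0.138) and the regulator Srebf2 (log2 0.07, adjusted p 0.706) were not called. A fit with the letter called 5 of the 26 higher (median 0.23).

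**Figure D4:**
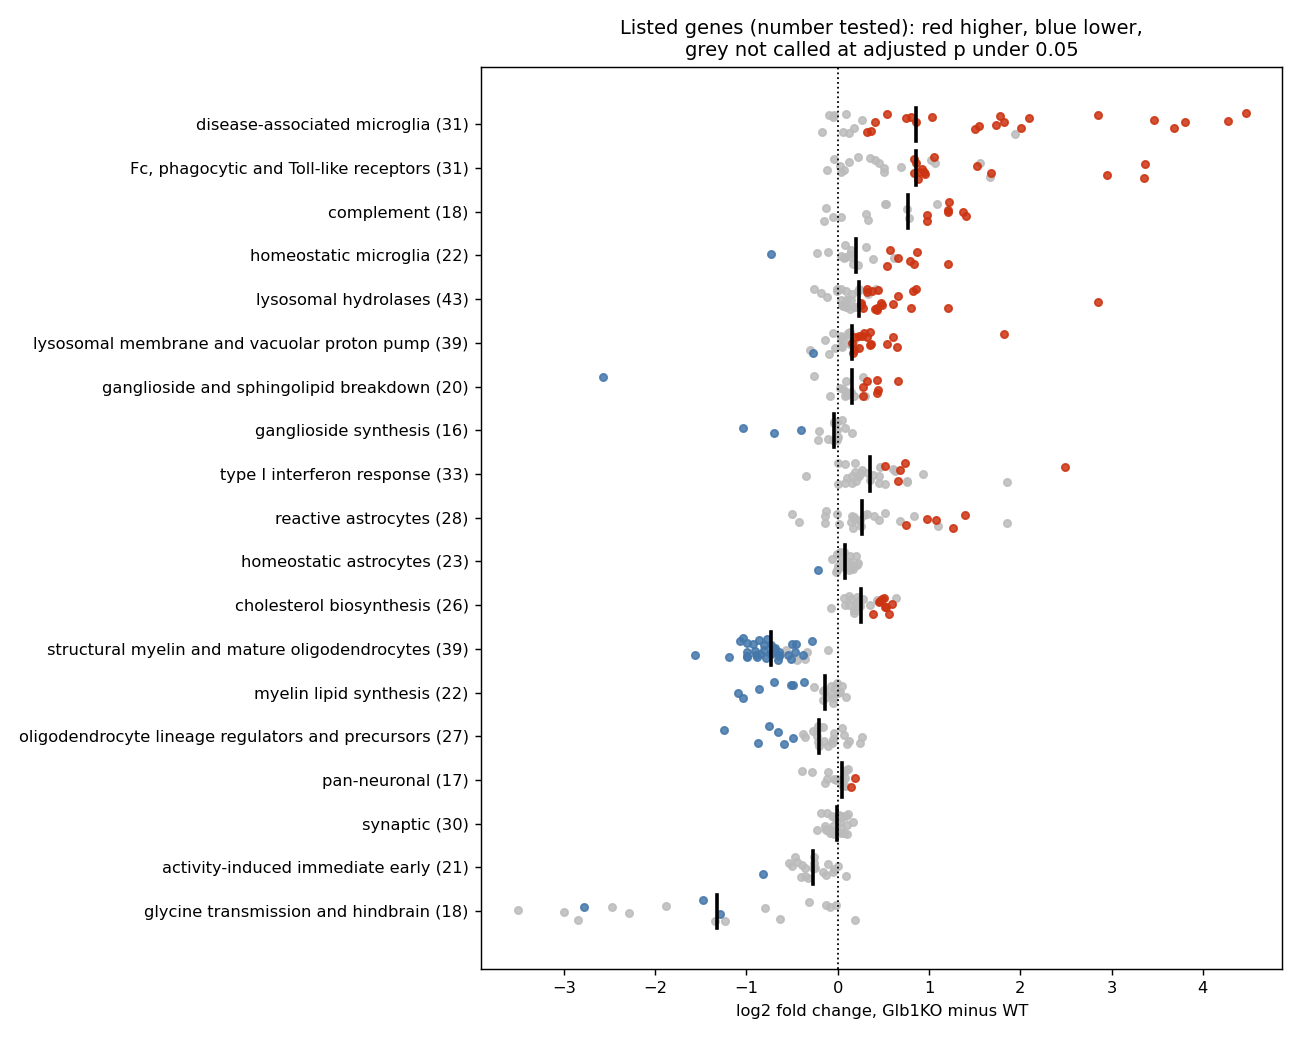
Log2 fold change of Glb1KO over WT (horizontal axis) of the tested genes of 19 lists (number tested in brackets), each point a gene, red called higher, blue called lower and grey not called, with the list's median as a black bar and the median of all genes as a dotted line. Atp6v0d2, with no WT read, is left out. The myelin genes lie wholly below 0, the microglial and complement genes mostly above it, and the synaptic genes around it.

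Few neuronal genes were called. Snap25, a protein of synaptic vesicle fusion, stood at 1527, 1639, 1439, 1454 and 1429.7 CPM in WT libraries 1 to 5 and at 1764, 1739, 1668, 1710.3 and 1684 CPM in Glb1KO libraries 1 to 5. Snap25 in Glb1KO was just above the WT range (log2 fold change 0.19, SE 0.05, adjusted p 0.0266). Of 17 pan-neuronal genes 2 were higher, Snap25 and the enolase Eno2 (log2 0.14, adjusted p 0.0457), and none was called lower (median 0.04, lowest -0.39). In 3 of the 17 all Glb1KO libraries lay below all WT libraries, and in 2 above. Over all genes these shares were 2.96% and 2.6%. The neuronal kinesin Kif5a, counted in the myelin list, was called lower, as given above. Snap25 was not called without WT library 3, 4 or 5 or Glb1KO library 1 or 2 (adjusted p 0.0626 to 0.0796), and Eno2 was not called without WT library 1, 3 or 5 or Glb1KO library 1, 3, 4 or 5 (adjusted p 0.0714 to 0.117). None of 30 synaptic genes was called (median -0.01), with a log2 fold change of 0.12 for the kinase gene Camk2a, and 2 of the 30 had an unadjusted p under 0.05 by edgeR and 0 were called by DESeq2.

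Immediate early genes are those that neuronal activity induces within minutes. Of 21 tested 19 had a log2 fold change below 0 (median -0.27), and 1, Npas4, was called. This activity-dependent transcription factor stood at 42.7, 26.6, 31.1, 38.2 and 24.0 CPM in WT libraries 1 to 5 and at 20.03, 20.6, 21.6, 18.2 and 11.4 CPM in Glb1KO libraries 1 to 5. Its highest Glb1KO library was below the lowest WT library (log2 fold change -0.82, SE 0.20, adjusted p 0.0226). Npas4 was not called without WT library 1 or 4 (adjusted p 0.0590 to 0.0704). The transcription factor Egr1 (log2 -0.33, adjusted p 0.178) and the synaptic scaffold Homer1 (log2 -0.13, adjusted p 0.808) were not called. The list was also lower in Neu3KO against the same WT libraries (median -0.32). Its summed level was 1899 to 2257 CPM in WT, 1380 to 1848 CPM in Glb1KO and 1639 to 1932 CPM in Neu3KO. The outcome varied with the identifier letter: 8 of the 21 were lower with the letter as a term (median -0.55), 6 among libraries with E (median -0.55) and 0 with the Glb1KO libraries with L (median -0.13).

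Of 18 tested genes of glycine transmission and of the hindbrain and spinal cord, 3 were lower (median -1.32), and 17 had a log2 fold change below 0. Slc6a5, the glycine transporter of inhibitory hindbrain neurons, stood at 44.9, 41.8, 68.5, 42.9 and 56.0 CPM in WT libraries 1 to 5 and at 22.3, 8.99, 17.9, 19.6 and 22.1 CPM in Glb1KO libraries 1 to 5. Glra1, a glycine receptor subunit, stood at 19.1, 14.0, 21.4, 13.9 and 18.2 CPM in WT libraries 1 to 5 and at 7.42, 4.80, 8.19, 6.16 and 8.74 CPM in Glb1KO libraries 1 to 5. The groups did not overlap in either gene (log2 fold change -1.48, SE 0.39, adjusted p 0.0402 for Slc6a5 and log2 fold change -1.29, SE 0.28, adjusted p 0.0113 for Glra1). Both varied most in Neu3KO, which is part of the same fit, at 29.4 ± 19.3 CPM for Slc6a5 and 10.8 ± 5.57 CPM for Glra1 (SD, n = 5). Slc6a5 was not called without WT library 1, 3, 4 or 5 or Glb1KO library 1, 2, 3, 4 or 5 (adjusted p 0.0561 to 0.106). Hoxc4, a positional gene of the caudal nervous system, fell (log2 -2.78, adjusted p 0.0251) but was not called without WT library 3 or 5 or Glb1KO library 2 or 3 (adjusted p 0.0513 to 0.0712). Glrb, the receptor subunit used across the brain, was not called (log2 -0.02, adjusted p 0.919). The count lower was 1 without WT library 3 or 5 or Glb1KO library 3, 7 without Glb1KO library 4, 7 in a fit of WT and Glb1KO alone, 8 with no filter on low counts and 5 with the L libraries of Glb1KO. No gene of the 18 was called with the letter in the fit (median -1.25).

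Hox genes mark caudal nervous tissue, and their levels were summed in each library. The summed level of the 14 listed Hox genes was 9.11, 14.5, 18.5, 10.5 and 19.4 CPM in WT libraries 1 to 5 and 1.11, 0.480, 0.244, 7.50 and 0.893 CPM in Glb1KO libraries 1 to 5. All WT libraries were above all Glb1KO libraries, and within Glb1KO library 4 stood far above the other 4. In the 5 Neu3KO libraries the Hox sum was 14.7, 2.31, 0, 10.4 and 1.34 CPM. The sum of the 39 genes of the myelin list was 12165, 12348, 10860.1, 11659 and 11689 CPM in the same Neu3KO libraries, 11223 to 12165 CPM in WT and 7208 to 7944 CPM in Glb1KO, with 7368 CPM in Glb1KO library 4. Kif5a, the neuronal kinesin, made up 23.1 to 26.5% of this sum in WT. Without Kif5a, left out after its level was seen, the sum was 8252 to 9189 CPM in WT and 5317 to 5942 CPM in Glb1KO. In DKO it was 5713 to 7084 CPM. Slc6a5 was 8.31 to 19.97 CPM in Neu3KO libraries 2, 3 and 5 and 48.5 and 51.2 CPM in libraries 1 and 4, which had the higher Hox sums of that group. How much caudal tissue each hemisphere held was not otherwise measured, and its part in the glycine, hindbrain and myelin differences was not tested.

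**Figure D5:**
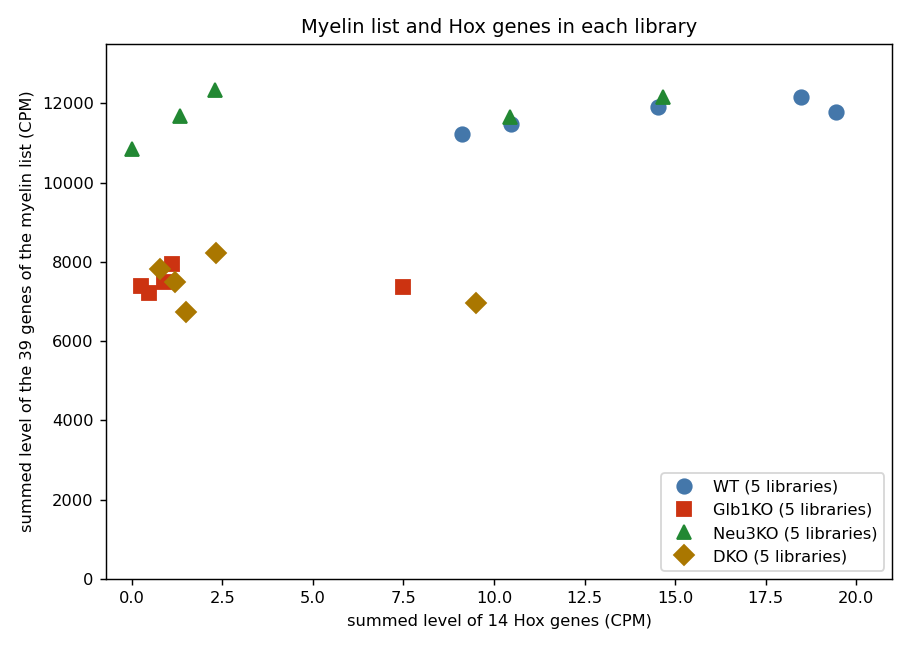
Summed CPM of the 39 genes of the myelin list, Kif5a included (vertical axis, from 0) against summed CPM of 14 Hox genes (horizontal axis) in each of the 20 libraries, coloured by genotype. Glb1KO and DKO libraries lie at 6739 to 8229 CPM of these genes and WT and Neu3KO libraries at 10860.1 to 12348 CPM. Kif5a is a smaller part of the sum in DKO. Without it the sum is 5317 to 5942 CPM in Glb1KO and 5713 to 7084 CPM in DKO.

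Ankub1, an ankyrin repeat protein gene and, within the limits given for Cst7, among the 5 lowest fold changes, stood at 4.37, 6.64, 5.24, 3.59 and 7.59 CPM in WT libraries 1 to 5 and at 2.04, 2.82, 2.10, 2.63 and 2.42 CPM in Glb1KO libraries 1 to 5. The groups did not overlap (log2 fold change -1.19, SE 0.25, adjusted p 0.00278). The other log2 fold changes among the 15 lowest within these limits that are not given elsewhere were those of the glycosyltransferase Galnt6 (-1.07), the semaphorin receptor Plxnb3 (-1.02) and the cytochrome Cyp2j12 (-1.01).

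Other regions and cell types showed few calls. No gene was called among 18 of cerebellar neurons, 18 of thalamus and midbrain, 21 of cortex, hippocampus and striatum, 13 of olfactory bulb, hypothalamus and pituitary, 19 of endothelium, 17 of pericytes and meningeal fibroblasts, 14 of choroid plexus and ependyma, 22 of apoptosis and p53 and 17 of the cell cycle. By edgeR 26 of these 159 entries had an unadjusted p under 0.05, as did 2975 of all genes tested, and DESeq2 called 1 higher and 2 lower. Of 23 genes of the cell's responses to misfolded proteins and other stress 1 was lower, the serine synthesis enzyme Phgdh (log2 -0.28, adjusted p 0.0159), which was not called without WT library 4 or 5 or Glb1KO library 3 (adjusted p 0.0629 to 0.0673). The clock genes Bhlhe40 (log2 0.30, adjusted p 0.00200) and Hlf (log2 0.17, adjusted p 0.0402) were higher, 2 of 18, the latter not without WT library 3, 4 or 5 or Glb1KO library 1, 2, 3, 4 or 5 (adjusted p 0.0505 to 0.132). The cytochrome oxidase subunit Cox7b (log2 0.29, adjusted p 0.00804) was the called member among 23 of oxidative phosphorylation, where 3 were called higher without WT library 2, and the neurexophilin Nxph4 (log2 -0.50, adjusted p 0.00925) fell among 19 neuropeptide genes.

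Genes near Glb1 on chromosome 9 are inherited together with its allele, and any effect of variants linked to it cannot be told apart from an effect of Glb1 loss. Within 20 Mb of Glb1 15 of 379 tested genes were called (3.96%), within 5 Mb 4 of 91 (4.4%), on the rest of the chromosome 20 of 678 (2.95%) and on the other chromosomes 690 of 17278 (3.99%). Fbxw15, an F-box protein gene at chr9:109552602-109568262, had the lowest fold change among them (log2 fold change -2.24, SE 0.33, adjusted p 1.78e-05). Its level was 2.67 ± 0.994 CPM in WT and 0.560 ± 0.284 CPM in Glb1KO (SD, n = 5), 2.42 ± 0.592 CPM in Neu3KO and 0.748 ± 0.285 CPM in DKO (SD, n = 5 each). The antisense gene model Gm42756, at chr9:109537100-109552780, overlaps the end of Fbxw15 and fell as well (log2 -1.58, adjusted p 0.00500). Without a stated strand setting, reads in the short stretch that the 2 share cannot be separated. The myelin gene Mobp (log2 -0.73, adjusted p 5.85e-05) and the oligodendrocyte receptor Gpr62 (log2 -0.44, adjusted p 0.0151) also lie in this window, as do the actin bundler Pls1 (log2 -0.44, adjusted p 0.00803), the cell cycle ligase subunit Anapc13 (log2 0.41, adjusted p 0.0146), the protease inhibitor Spink8 (log2 0.78, adjusted p 0.0404) and the gene model Gm37111 (log2 -0.81, adjusted p 0.0281). Gpr62 was not called without WT library 3 or Glb1KO library 3 (adjusted p 0.0508 to 0.0567), Anapc13 without WT library 1 or Glb1KO library 1 (adjusted p 0.0618 to 0.0620), Spink8 without WT library 1, 2, 4 or 5 or Glb1KO library 1, 2, 3 or 5 (adjusted p 0.0502 to 0.174), and Gm37111 without WT library 2, 3, 4 or 5 or Glb1KO library 1, 3 or 4 (adjusted p 0.0531 to 0.109).

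The levels of these genes in Glb1KO were also set beside those in DKO, which per the labels lacks Neu3 as well. Both comparisons use the same Glb1KO libraries. Neu3 itself averaged 4.06 ± 0.621 CPM in Glb1KO and 2.98 ± 0.826 CPM in DKO and was not called (log2 difference -0.45, adjusted p 0.147). Neither was it called between Neu3KO and WT (log2 difference -0.43, adjusted p 0.823). The Neu3 genotype thus rests on the labels, as these counts do not show its loss. Between DKO and Glb1KO 15.7% of genes tested were called, 8.41% higher and 7.29% lower in DKO. Of the disease-associated microglial genes 28 of 31 were higher in DKO and 0 lower, of the reactive astrocyte genes 27 of 28 were higher and 1 lower, and of the lysosomal hydrolases 27 of 43 were higher and 0 lower. Of the myelin genes 10 of 39 were higher and 2 lower, and of the cholesterol synthesis genes 2 of 26 were higher and 1 lower. Gpnmb averaged 39.3 ± 7.99 CPM in Glb1KO and 470.0 ± 43.5 CPM in DKO (log2 difference 3.58, adjusted p 1.02e-14). Gfap averaged 465 ± 82.2 and 3987 ± 294 CPM (log2 difference 3.10, adjusted p 8.29e-12). Tspan2 averaged 69.6 ± 5.08 and 76.3 ± 2.23 CPM and was not called (log2 difference 0.13, adjusted p 0.153), and neither was Glb1 (log2 difference 0.24, adjusted p 0.360). The difference between the effects of Glb1 loss with and without Neu3, an interaction term of the same fit, was called in 6.84% of genes tested.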

How the data were processed

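Gene expression was measured by RNA sequencing of mouse brain. The authors deposited raw counts of reads for each gene in each library, not normalized. The submitters' processing notes name featureCounts 1.5.0-p3, HISAT2 2.0.5, DESeq2 1.20.0, fastp and, as builds, GRCm38 and mm10. The sources used here do not give the strand setting, filters or roles. Genotype and replicate number came from the labels, and all sample columns matched a library. The deposited FPKM table and the authors' comparison of DKO with WT were not used here. A few genes of the lists are counted but not reported here.

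All 20 libraries were fitted with a mean per genotype in edgeR 4.0.16 (R 4.3.3): filterByExpr by group left 18336 of 54532 genes, counts were scaled with TMM factors, and the robust quasi-likelihood F test was applied to Glb1KO minus WT, with Benjamini-Hochberg adjustment over all genes tested at 0.05. SE came from the F statistic. The method was tested on simulated counts. Totals of 15734414 to 20391893 counts set the precision; floors of 3 reads cover counting error only.

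The members and the 37 gene lists (883 genes) were chosen with earlier results of these data known; lists are described by counts and medians, without a test. Named genes are the 15 highest and 15 lowest fold changes that were called, averaged at least 1 CPM, did not overlap between groups, were protein-coding with a name that is no gene model, off the Y chromosome, not Xist and over 20 Mb from Glb1; from each list the called members of smallest adjusted p (at most 6) and the members of highest CPM (at most 2); all ganglioside genes; and up to 8 called genes within 20 Mb of Glb1. Other names are said to have been chosen after their values were seen. Alternatives were RLE factors, total counts, 2 other filters, DESeq2 1.42.0, the groups alone, the identifier letter, the replicate block and each library left out.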

Additional observations from a re-analysis of the deposited data

Results flagged for a closer look

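Each of the 62 groups of 5 CPM values printed per library, from 31 genes in 2 genotypes, was checked for a library far from the others, where chance gives about 1 in 20. In 2 groups the gap to the nearest library exceeded Dixon's limit of 0.71 of the range. Gpnmb in Glb1KO library 5 was 25.5 CPM, with the other 4 libraries at 39.5 to 45.1 CPM (ratio 0.717). Fcgr2b in WT library 5 was 3.57 CPM, with the other 4 at 1.96 to 2.37 CPM (ratio 0.744).

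For 16 of these 31 genes the effect of losing Glb1 differed by the presence of Neu3. This is by edgeR's interaction term, DKO minus Neu3KO less Glb1KO minus WT, adjusted over all genes tested. Of all genes tested the term was called in 6.84%. The printed genes other than Glb1 were chosen by their Glb1KO minus WT values, which enter the term, so the shares cannot be compared directly. On the log2 scale the term was 2.70 for Cst7 (adjusted p 0.0321), 3.73 for Gpnmb (adjusted p 2.15e-09) and 1.38 for Lyz2 (adjusted p 0.00258). It was 1.82 for Cd68 (adjusted p 1.72e-10), 0.91 for Trem2 (adjusted p 4.82e-05), 1.10 for Ctss (adjusted p 1.29e-06), 0.67 for Hexa (adjusted p 0.000114) and 1.42 for Grn (adjusted p 4.21e-15). Complement and immune genes gave 2.38 for C4b (adjusted p 7.81e-20), 1.22 for C1qa (adjusted p 2.97e-10), 2.44 for Fcgr2b (adjusted p 1.24e-10) and 0.87 for B2m (adjusted p 1.28e-05). The astrocyte genes gave 3.44 for Serpina3n (adjusted p 1.34e-14) and 3.17 for Gfap (adjusted p 1.85e-09). All these terms were above 0, so that the increase with Glb1 loss was greater in the Neu3 knockout. Myrf gave 0.51 (adjusted p 0.000866), a smaller decrease, and Snap25 -0.42 (adjusted p 0.000234), a change of direction. Snap25 was higher in Glb1KO than in WT (log2 0.19). In DKO it was on average lower than in Neu3KO, at 1274 to 1495 CPM against 1477 to 1821 CPM.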

How the results depend on the processing

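The identifier letter changed the counts most. With the letter as a term in the fit 315 genes were called (125 higher and 190 lower), and among libraries starting with E, with 2 Glb1KO libraries, 323 (131 higher and 192 lower). The second has fewer libraries. In the first, L occurs in Glb1KO alone, so Glb1KO minus WT there rests on the same 2 Glb1KO libraries. An effect of what the letter stands for cannot be told apart from leaving out the L libraries. With no filter on low counts, which tests more genes, 483 genes were higher and 59 at least 2-fold lower. In a window of 5 Mb around Glb1, 4 genes were called against 15 in 20 Mb. Without 1 library the number called was 551 to 824. Without WT library 1 it was 595, of which 534 were among the 726. The counts of genes called, higher and lower stayed within 1.5 times of the main ones with RLE factors, total counts, a mean of at least 1 CPM, DESeq2, WT and Glb1KO alone and the Glb1KO libraries with L. Of the 726 genes, each kept its sign in every alternative that gave it a value. Of 139 named genes called, 78 kept their call in every alternative that gave a value and 111 in all but those by letter. The replicate numbers of the labels did not pair the libraries: same-numbered WT and Glb1KO libraries had correlations of -0.129 to 0.00768 in their deviations. With the replicate number as a block 685 genes were called, 650 of them among the 726, and no WT library correlated best with its own number. A gene at few reads, such as Ccl4 or Atp6v0d2, has a fold change limited by depth. Leaving out 1 library raised the number of members lower from 1 to 2 among immediate early genes (without Glb1KO library 2), cytokines (WT library 5), homeostatic microglia and neuropeptides (Glb1KO library 4) and stress genes (WT library 1 or Glb1KO library 4).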

Other observations

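Genes of the Rag and folliculin complexes, through which lysosomes pass nutrient state to mTORC1 and the MiT/TFE factors, were chosen after their values were seen and are given as a description. Of 12 tested, 5 were higher in Glb1KO and 7 were not called. Rragd, a Rag GTPase, averaged 157 ± 9.11 CPM in WT and 219 ± 10.001 CPM in Glb1KO (SD, n = 5; log2 0.48, adjusted p 3.07e-07), and its relative Rragc rose (log2 0.22, adjusted p 0.0255). Folliculin, Flcn (log2 0.27, adjusted p 0.0168), and its partners Fnip1 (log2 0.34, adjusted p 0.000268) and Fnip2 (log2 0.46, adjusted p 0.000370) rose as well. Rraga (log2 0.07, adjusted p 0.549) and Rragb (log2 0.09, adjusted p 0.511), the other Rag genes, were not called, nor were the 5 Lamtor genes of the anchoring complex. The lysosomal chloride exchanger Clcn7 (log2 0.23, adjusted p 0.0269) and its partner Ostm1 (log2 0.24, adjusted p 0.0182) were higher. Flcn was not called without WT library 3 (adjusted p 0.0517), Rragc without WT library 3 or 4 or Glb1KO library 1, 3 or 5 (adjusted p 0.0714 to 0.101), Clcn7 without WT library 2 or 3 or Glb1KO library 3 or 5 (adjusted p 0.0641 to 0.0959), and Ostm1 without WT library 1 or Glb1KO library 5 (adjusted p 0.0595 to 0.0653). With the identifier letter in the fit Flcn, Rragc, Fnip2, Clcn7 and Ostm1 were not called (adjusted p 0.0535 to 0.440).

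Of 7 genes of iron and haem handling, chosen in the same way, 3 were higher. Slc11a1, a metal transporter of phagosomes, averaged 1.65 ± 0.338 CPM in WT and 4.33 ± 1.01 CPM in Glb1KO (log2 1.39, adjusted p 1.51e-05). The haem oxygenase Hmox1 (log2 0.78, adjusted p 0.000538) and the ferritin light chain Ftl1 (log2 0.44, adjusted p 3.52e-06) rose too, Hmox1 without a call when the letter was in the fit (adjusted p 0.101). The ferritin heavy chain Fth1, given above, was not called (log2 -0.17, adjusted p 0.171), nor were transferrin, Trf (log2 -0.36, adjusted p 0.150), which oligodendrocytes make, the transferrin receptor Tfrc (log2 0.08, adjusted p 0.806) and the iron exporter Slc40a1 (log2 0.31, adjusted p 0.316).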
